A study of Homo sapiens with 24 samples.

Results

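The kinesins are motor proteins that move along microtubules, and the genes described here are those the array's annotation names KIF followed by a digit. Each gene was read from a probe set annotated to it alone, and of several such probe sets the one brightest on average was taken. This gave 38 kinesin genes among 18417 genes measured. By their known roles 12 were classed as mitotic kinesins, 13 as transport kinesins and 13 as other kinesins. The antisense gene KIF25-AS1 was left out. KIF4B lay only on a probe set shared with KIF4A and KIF28P had no single-gene probe set, so both were not analysed as members. No filter on low values was applied, so all 38 genes were tested in every comparison.

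RNA came from SUM149PT and SUM190PT, inflammatory breast cancer cell lines that the labels give as estrogen receptor negative with mutant p53, and each of 24 samples was hybridised to an Affymetrix Human Gene 1.0 ST array. SUM149PT cells, kept in medium with serum, received 10 nM 17β-estradiol together with 7.5 µM CG-1521, 7.5 µM CG-1521 alone, 10 nM 17β-estradiol alone, or vehicle. SUM190PT cells, kept in medium to which the labels list no serum, received the same agents with CG-1521 at 5 µM. CG-1521 is a histone deacetylase inhibitor, the vehicle was ethanol and DMSO, and every treatment lasted 48 h. Each of the 8 groups had 3 arrays, which the design text describes as independent experiments. Line, medium and CG-1521 dose changed together and cannot be told apart in any comparison of the lines. Values are log2 expression, so a difference of 1 is a 2-fold change. Levels of different genes were set against each other only to mark dim genes.

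Kinesins use ATP to step along microtubules or to take microtubule ends apart. Mitotic kinesins build the spindle, move chromosomes and complete cell division, and their transcripts are known to rise in the G2 and M phases of dividing cells. Transport kinesins carry vesicles, endosomes, mitochondria and ciliary cargo in dividing and resting cells alike. The other kinesins shape microtubules at the cell cortex, centrioles and cilia or have no settled motor role.

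Arrays of a group correlated over all genes, with r from 0.9946 to 0.996 in SUM149PT and from 0.9807 to 0.9957 in SUM190PT. All 4 SUM190PT groups spread more widely than those of SUM149PT, with a lowest r of 0.9883 and 0.9884 in the groups with CG-1521, 0.9837 with estradiol and 0.9807 with vehicle. The third array of the vehicle group and that of the estradiol group stood apart from the other arrays beside them. The third array minus the mean of the other 2 had a median of -1.23 over the 12 mitotic kinesins in the estradiol group and also -1.23 in the vehicle group, with 11 of 12 genes below both other arrays in each. The 10 proliferation genes outside the family that were listed for comparison had medians of -1.83 in the estradiol group and -1.65 in the vehicle group by the same measure, and the transport kinesins 0.089 and -0.001. The main counts in SUM190PT are therefore given with and without these arrays. Over the vehicle arrays, the median of 7 measured basal breast epithelial markers lay between 10.15 and 10.26 in SUM149PT and between 6.27 and 7.10 in SUM190PT. That of 12 luminal markers lay between 6.21 and 6.37 in SUM149PT and between 11.11 and 11.36 in SUM190PT. Array medians of the fibroblast, leukocyte and neuron markers lay between 4.42 and 5.32 in the vehicle arrays of both lines.

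CG-1521 lowered nearly the whole mitotic class in SUM149PT. Of 12 mitotic kinesins, 11 were lower in CG-1521 than in vehicle arrays at an adjusted p under 0.05 and none was higher, while 19.9% of all genes tested were lower and 14.4% higher. All 11 lay lower on every CG-1521 array than on any vehicle array, which 24.7% of all genes did. The median difference over the class was -1.86, against -0.0024 over all genes. In bulk RNA, fewer cells in division and less RNA per cell cannot be told apart.

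KIF20A, which carries the chromosomal passenger complex to the central spindle, fell most. Its values were 6.93, 7.10 and 6.98 in CG-1521 arrays, against 9.86, 9.74 and 9.80 in vehicle arrays. The difference was -2.80 (SE 0.075, adjusted p = 1.16e-12), a 6.94-fold lower level, and the groups were far apart relative to their spread. KIF23, the motor of centralspindlin at the midbody, measured 7.99, 8.01 and 7.98 under CG-1521 and 9.89, 10.13 and 10.25 in vehicle, a difference of -2.09 (SE 0.0926). KIF20B, a midbody motor needed for the end of cytokinesis, measured 5.49, 5.38 and 5.46 under CG-1521 and 7.55, 7.68 and 7.78 in vehicle, a difference of -2.23 (SE 0.0936). The 3 motors of this subfamily that act at the central spindle and midbody were thus all low on the 3 CG-1521 arrays.

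The motors that keep the spindle bipolar fell by similar amounts. KIF11, which slides antiparallel microtubules apart, measured 6.64, 6.27 and 6.57 under CG-1521 and 8.66, 8.68 and 8.63 in vehicle, a difference of -2.16 (SE 0.146, adjusted p = 1.49e-08). KIF15, which backs up KIF11, measured 4.52, 4.36 and 4.80 under CG-1521 and 6.73, 6.78 and 6.73 in vehicle, a difference of -2.19 (SE 0.118). Neither gene's CG-1521 arrays came within 1 log2 unit of its vehicle arrays. The motors of chromosome arms and kinetochores came next. KIF18A, which dampens chromosome oscillation at the metaphase plate, measured 6.65, 6.52 and 6.69 under CG-1521 and 8.61, 8.49 and 8.62 in vehicle, a difference of -1.96 (SE 0.108). The chromokinesin KIF4A measured 7.86, 7.51 and 7.92 under CG-1521 and 9.47, 9.46 and 9.64 in vehicle, a difference of -1.76 (SE 0.103). KIF2C, which takes microtubules apart at the centromere to correct wrong attachments, measured 7.45, 7.24 and 7.21 under CG-1521 and 9.05, 9.05 and 8.96 in vehicle, a difference of -1.72 (SE 0.0902). In each of these genes the 3 CG-1521 arrays were the low ones. KIF14, which binds PRC1 at the midbody, the chromokinesin KIF22 and KIF18B, which shortens astral microtubules, also fell, with differences of -1.47, -1.40 and -1.24. The exception was KIF2B, a kinesin-13 depolymerizer of the spindle, with a difference of 0.087 (adjusted p = 0.551) and groups that overlapped.

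In SUM190PT the same 11 mitotic kinesins were lower in CG-1521 than in vehicle arrays and none was higher, while 8.26% of all genes were lower and 8.32% higher. All 11 were lower on every CG-1521 array than on any vehicle array, against 17.2% of all genes. The class median was -1.56, against -0.048 over all genes. KIF20A measured 5.54, 6.45 and 5.90 under CG-1521 and 9.24, 8.99 and 7.57 in vehicle. The difference was -2.64 (SE 0.48, adjusted p = 0.00281), a 6.22-fold lower level. The lowest vehicle value was that of the third array, still above the highest CG-1521 value.

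KIF4A measured 6.54, 7.72 and 6.92 under CG-1521 and 9.94, 9.48 and 8.49 in vehicle, a difference of -2.25 (SE 0.441, adjusted p = 0.00448). KIF2C measured 5.13, 5.89 and 5.68 under CG-1521 and 8.47, 7.89 and 6.50 in vehicle, a difference of -2.06 (SE 0.47, adjusted p = 0.0104). For both genes the second CG-1521 array was the highest of its group and the third vehicle array the lowest of its own. KIF11 measured 4.81, 5.59 and 5.26 under CG-1521 and 7.92, 7.16 and 6.05 in vehicle, a difference of -1.83 (SE 0.459, adjusted p = 0.0171). KIF23 measured 7.25, 8.24 and 7.55 under CG-1521 and 9.82, 9.51 and 8.68 in vehicle, a difference of -1.65 (SE 0.356, adjusted p = 0.0075). For both, the groups came closest at the second CG-1521 array and the third vehicle array.

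KIF18A, the kinetochore motor, measured 4.32, 4.98 and 4.97 under CG-1521 and 6.78, 6.33 and 5.55 in vehicle, a difference of -1.47 (SE 0.335, adjusted p = 0.0104). KIF20B measured 4.34, 4.56 and 4.25 under CG-1521 and 6.73, 5.99 and 4.84 in vehicle, a difference of -1.47 (SE 0.445, adjusted p = 0.0397). KIF15 measured 3.87, 4.22 and 4.14 under CG-1521 and 6.37, 5.49 and 4.52 in vehicle, a difference of -1.38 (SE 0.423, adjusted p = 0.0414). In these 3 genes the third vehicle array lay closer to the highest CG-1521 array than to the first vehicle array. KIF14, KIF22 and KIF18B fell, with differences of -1.77, -1.39 and -0.74, and KIF2B differed by -0.058 without passing. Over all alternatives the call of KIF18B was lost in 7 of 15, KIF15 in 6 of 14, KIF20B in 5 of 14 and KIF11 in 3 of 15. Those of KIF18A and KIF2C were lost in 1 of 15 each, and those of KIF20A, KIF4A, KIF23, KIF14 and KIF22 in none. Leaving out the third vehicle and estradiol arrays kept 11 mitotic kinesins lower and moved the class median to -1.98, with 9.4% of all genes lower. The count was 5, 9 and 8 without the first, the second and the third CG-1521 array, and 7 without either the first or the second vehicle array. Calls over all genes also fell without the first CG-1521 array and without the second vehicle array, as given in the last paragraph.

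**Figure D1:**
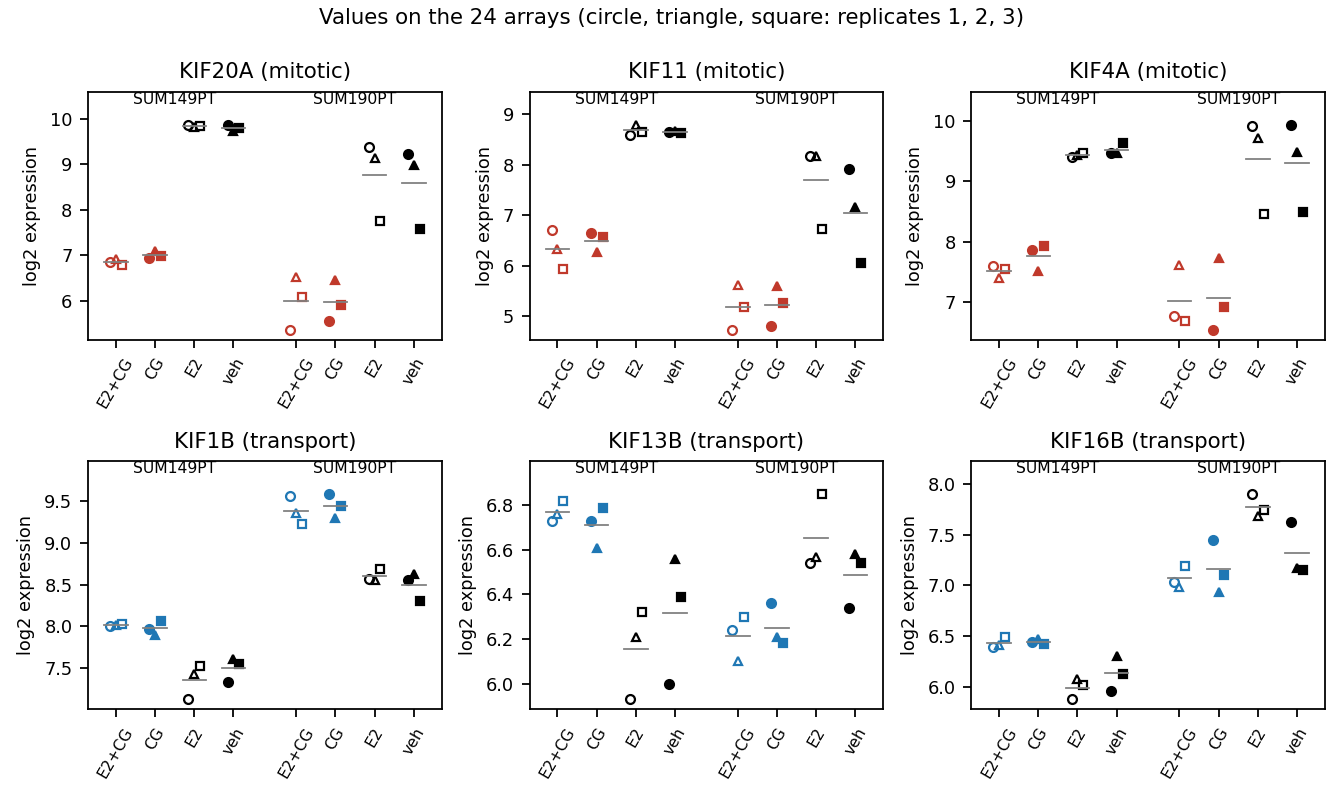
Log2 expression of KIF20A, KIF11, KIF4A, KIF1B, KIF13B and KIF16B on each array, by line and treatment, with circles, triangles and squares for replicates 1, 2 and 3, open symbols for groups with estradiol and grey lines for group means. KIF20A, KIF11 and KIF4A lie lower with CG-1521 in both lines, with the SUM190PT values of the third vehicle array and the third estradiol array low, whereas KIF1B lies higher with CG-1521 in both lines.

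**Figure D2:**
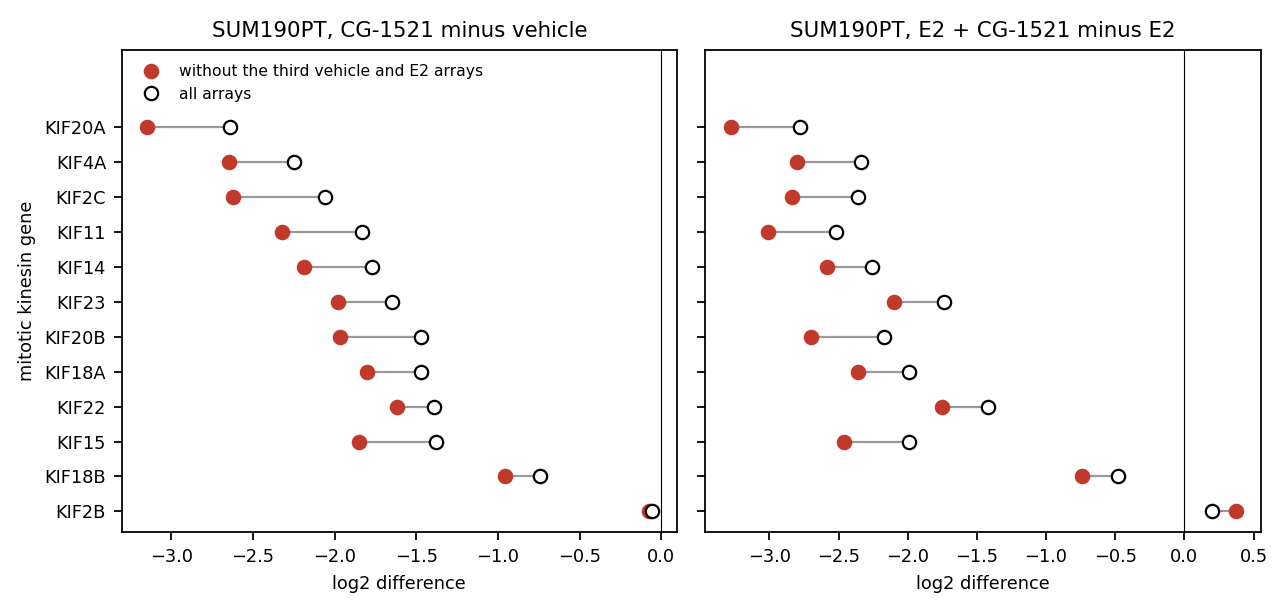
Log2 difference between CG-1521 and vehicle, and between estradiol plus CG-1521 and estradiol, for each mitotic kinesin in SUM190PT, from all arrays (open) and without the third array of the vehicle and of the estradiol group (filled). Without those arrays the class medians are -1.98 and -2.52, against -1.56 and -2.08 with them.

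The promoters of the mitotic kinesins are shown because most members of the class moved together. The CCAAT box and TTTGAA, the letters of the cell cycle homology region, are known from promoters of genes expressed in G2 and M phase. The windows run from 250 bases before to 50 bases after the annotated start, from RefSeq on GRCh38.p14, and 32 of the 38 kinesins had one. Those of KIF20A (chr5:138178862-138179161), KIF11 (chr10:92592880-92593179), KIF4A (chrX:70289854-70290153) and KIF23 (chr15:69414099-69414398) stand for the class. That of the transport kinesin KIF1B (chr1:10210320-10210619), the first of its 3 windows, is set beside them as a gene that moved the other way. All are on the plus strand. Capitals mark CCAAT or its reverse complement ATTGG, and TTTGAA or its reverse complement TTCAAA.
KIF20A: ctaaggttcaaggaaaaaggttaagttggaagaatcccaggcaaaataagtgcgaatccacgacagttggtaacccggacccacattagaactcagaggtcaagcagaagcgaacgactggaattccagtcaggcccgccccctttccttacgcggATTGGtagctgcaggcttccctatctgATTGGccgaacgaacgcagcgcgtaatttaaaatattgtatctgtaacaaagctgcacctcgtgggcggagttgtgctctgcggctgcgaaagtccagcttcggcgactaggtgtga
KIF11: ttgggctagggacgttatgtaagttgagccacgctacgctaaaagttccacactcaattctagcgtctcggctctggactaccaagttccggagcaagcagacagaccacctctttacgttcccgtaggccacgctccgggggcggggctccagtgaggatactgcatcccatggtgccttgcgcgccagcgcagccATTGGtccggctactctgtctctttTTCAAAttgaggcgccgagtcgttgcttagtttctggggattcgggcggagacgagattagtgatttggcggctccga
KIF4A: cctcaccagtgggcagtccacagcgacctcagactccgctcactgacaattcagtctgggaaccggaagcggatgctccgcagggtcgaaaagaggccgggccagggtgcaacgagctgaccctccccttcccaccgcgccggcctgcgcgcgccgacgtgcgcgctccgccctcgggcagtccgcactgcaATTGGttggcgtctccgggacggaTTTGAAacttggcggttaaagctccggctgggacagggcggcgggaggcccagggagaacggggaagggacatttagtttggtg
KIF23: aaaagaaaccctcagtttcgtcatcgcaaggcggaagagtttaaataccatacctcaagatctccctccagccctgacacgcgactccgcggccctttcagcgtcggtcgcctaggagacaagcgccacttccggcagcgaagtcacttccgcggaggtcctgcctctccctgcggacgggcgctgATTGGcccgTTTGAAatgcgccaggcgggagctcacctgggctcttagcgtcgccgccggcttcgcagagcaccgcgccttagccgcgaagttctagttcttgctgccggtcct
KIF1B: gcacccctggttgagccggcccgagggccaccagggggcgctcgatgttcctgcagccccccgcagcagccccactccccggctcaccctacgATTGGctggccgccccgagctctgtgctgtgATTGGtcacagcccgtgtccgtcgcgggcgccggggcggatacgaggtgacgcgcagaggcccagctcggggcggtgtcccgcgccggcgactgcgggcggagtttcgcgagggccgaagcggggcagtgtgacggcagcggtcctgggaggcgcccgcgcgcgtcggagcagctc

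CCAAT stood 94 and 67 bases before the start in KIF20A, 53 in KIF11, 58 in KIF4A, 64 in KIF23, and 157 and 126 in KIF1B, counted to the first base of the match on the printed strand. TTTGAA stood 28 bases before the start in KIF11, 34 in KIF4A and 55 in KIF23, and was not in the printed windows of KIF20A or KIF1B. Over the class, CCAAT on either strand was in 9 of 12 mitotic kinesins, 4 of 11 transport kinesins and 3 of 9 other kinesins with a window, and in 39.7% of all genes in the table. TTTGAA was in 8 of 12 mitotic, 1 of 11 transport and 0 of 9 other kinesins, and in 18.2% of all genes. The GC box core GGGCGG was in 10 of 12 mitotic, 11 of 11 transport and 9 of 9 other kinesins, and in 48.3% of all genes. A total of 7 mitotic kinesins held both CCAAT and TTTGAA, and no 2 different motifs overlapped in these windows. The windows of KIF2C and KIF2B held neither, although KIF2C fell in both lines and KIF2B passed in neither. A match is a run of letters and not a bound site.

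The transport kinesins had no common direction. In SUM149PT 3 of 13 were higher in CG-1521 than in vehicle arrays, 2 were lower and 8 did not pass, with a median of 0.026. In SUM190PT 1 was higher, 0 were lower and 12 did not pass, with a median of -0.086. Over all genes 14.4% were higher and 19.9% lower in SUM149PT, and 8.32% higher and 8.26% lower in SUM190PT. KIF1B, which carries mitochondria and synaptic vesicle precursors, was the member that rose in both lines. In SUM149PT it measured 7.97, 7.90 and 8.06 under CG-1521 and 7.34, 7.61 and 7.55 in vehicle, a difference of 0.48 (SE 0.102, adjusted p = 0.00147), 1.39-fold. In SUM190PT it measured 9.58, 9.30 and 9.44 under CG-1521 and 8.56, 8.63 and 8.30 in vehicle, a difference of 0.94 (SE 0.125, adjusted p = 0.000383), 1.92-fold. The CG-1521 arrays were above all vehicle arrays in each line.

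Further transport kinesins past the threshold in SUM149PT are named after their values were seen. KIF13B, a vesicle motor also known as GAKIN, measured 6.73, 6.61 and 6.79 under CG-1521 and 6.00, 6.56 and 6.39 in vehicle, a difference of 0.40 (adjusted p = 0.0232). KIF16B, which moves early endosomes towards microtubule plus ends, measured 6.44, 6.47 and 6.42 under CG-1521 and 5.96, 6.31 and 6.13 in vehicle, a difference of 0.31 (adjusted p = 0.0148). In both genes the first vehicle array was the lowest, and without it the differences were 0.24 (adjusted p = 0.13) and 0.22 (adjusted p = 0.0845). Over all alternatives the call of KIF16B was lost in 2 of 14. KIF13B also missed the threshold without the first CG-1521 array (adjusted p = 0.0586) or the third (adjusted p = 0.0847). The conventional kinesin heavy chains KIF5C, mainly neuronal, and KIF5B, found in most cells, fell, with differences of -0.41 and -0.27. KIF5C measured 4.91, 4.62 and 4.76 under CG-1521 and 4.95, 5.30 and 5.28 in vehicle, with every CG-1521 array below every vehicle array. KIF5B passed at an adjusted p of 0.0229 and missed without the first CG-1521 array (adjusted p = 0.0768), the second (adjusted p = 0.119) or the third vehicle array (adjusted p = 0.0812). Its call was lost in 5 of 14 alternatives. Differences of all 13 transport kinesins ran from -0.41 to 0.48 in SUM149PT and from -0.50 to 0.94 in SUM190PT, while those of the mitotic kinesins reached -2.80 and -2.64.

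**Figure D3:**
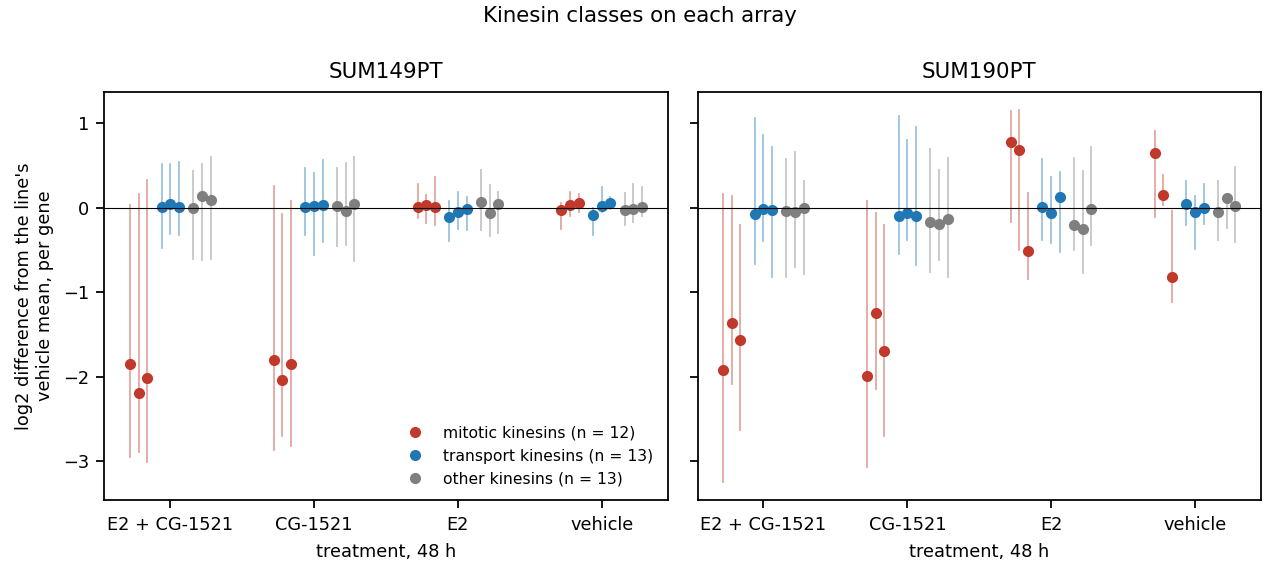
Median over the genes of each class, per array, of the log2 value minus the gene's own mean over the vehicle arrays of its line; dots are arrays, thin lines run from the lowest to the highest gene, and groups are estradiol plus CG-1521, CG-1521, estradiol and vehicle in each line. Mitotic medians are between -1.24 and -2.19 on all 12 arrays with CG-1521, while the transport medians stay near 0 in every group. Some transport kinesins are dim, and low signal is not told apart from steady expression in them.

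Set against the vehicle mean of each gene, the mitotic class median averaged -2.02 ± 0.168 with estradiol plus CG-1521, -1.89 ± 0.126 with CG-1521, 0.017 ± 0.0132 with estradiol and 0.019 ± 0.0395 with vehicle in SUM149PT (SD, n = 3 each). In SUM190PT it averaged -1.62 ± 0.278 with both agents, -1.64 ± 0.378 with CG-1521, 0.31 ± 0.716 with estradiol and -0.0092 ± 0.744 with vehicle (SD, n = 3 each). The wide spread of the last pair came from the third arrays, at -0.51 with estradiol and -0.82 with vehicle, and even these lay above all 6 SUM190PT arrays with CG-1521. The transport class median averaged between -0.089 and 0.024 in the 8 groups. Some transport kinesins were dim, with mean values over all arrays of 4.56 for KIF5C, 4.74 for KIF1A, 5.09 for KIF17 and 5.33 for KIF5A. Others were bright, such as KIF5B at 10.30 and KIF1C at 8.78. The mitotic kinesins KIF15 and KIF2B were also dim, at 5.28 and 5.43. Whether low signal hid changes in dim transport kinesins was not tested.

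Among the other kinesins 2 of 13 were higher and 2 lower in SUM149PT, and 1 was higher and 0 lower in SUM190PT, in CG-1521 against vehicle arrays. Over all genes 14.4% were higher and 19.9% lower in SUM149PT, and 8.32% higher and 8.26% lower in SUM190PT. The counts of this class thus lay near or below the background. Some of its members were dim, with mean values over all arrays of 3.85 for KIF6, 4.01 for KIF25, 4.28 for KIF9 and 4.88 for KIF26B. Others were brighter, such as KIF2A at 7.98 and KIF21A at 7.76. Whether low signal hid changes in the dim members was not tested. KIF21A, which limits microtubule growth at the cell cortex, rose in both lines. In SUM149PT it measured 8.15, 8.20 and 8.28 under CG-1521 and 7.56, 7.72 and 7.75 in vehicle, a difference of 0.53 (SE 0.088, adjusted p = 0.000158). In SUM190PT it measured 7.98, 7.73 and 7.87 under CG-1521 and 7.61, 7.21 and 7.03 in vehicle, a difference of 0.58 (SE 0.159, adjusted p = 0.0261). The groups did not overlap in either line, and without the third vehicle and estradiol arrays the SUM190PT difference was 0.45 (adjusted p = 0.0802). It also missed the threshold there without the first CG-1521 array (adjusted p = 0.104), the third (adjusted p = 0.0702) or the second vehicle array (adjusted p = 0.0889). Over all alternatives the KIF21A call in SUM190PT was lost in 5 of 15.

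The remaining calls of this class in SUM149PT were smaller, and their genes were chosen after their values were seen. KIF21B, a regulator of microtubule dynamics in neurons and immune cells, rose by 0.28. KIF2A, a depolymerizer at spindle poles and in neurites, fell by 0.38. KIF24, a centriolar kinesin that restrains the start of cilia, fell by 0.42, with 4.99, 4.96 and 4.67 under CG-1521 and 5.22, 5.46 and 5.22 in vehicle. The call of KIF21B was lost without the first CG-1521 array (adjusted p = 0.0517), the second (adjusted p = 0.0708) or the first vehicle array (adjusted p = 0.0517). That of KIF24 was lost without the third CG-1521 array (adjusted p = 0.0737) or the second vehicle array (adjusted p = 0.064). Over all alternatives the call of KIF21B was lost in 4 of 14 and that of KIF24 in 3 of 13. In SUM190PT the difference of KIF24 was -0.71 (adjusted p = 0.0511), and -0.92 (adjusted p = 0.000554) without the third vehicle and estradiol arrays. In SUM190PT KIF21B was high on the third arrays, at 7.35 with estradiol against 6.20 and 6.38 on the other 2, and at 7.10 with vehicle against 6.39 and 6.38.

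**Figure D4:**
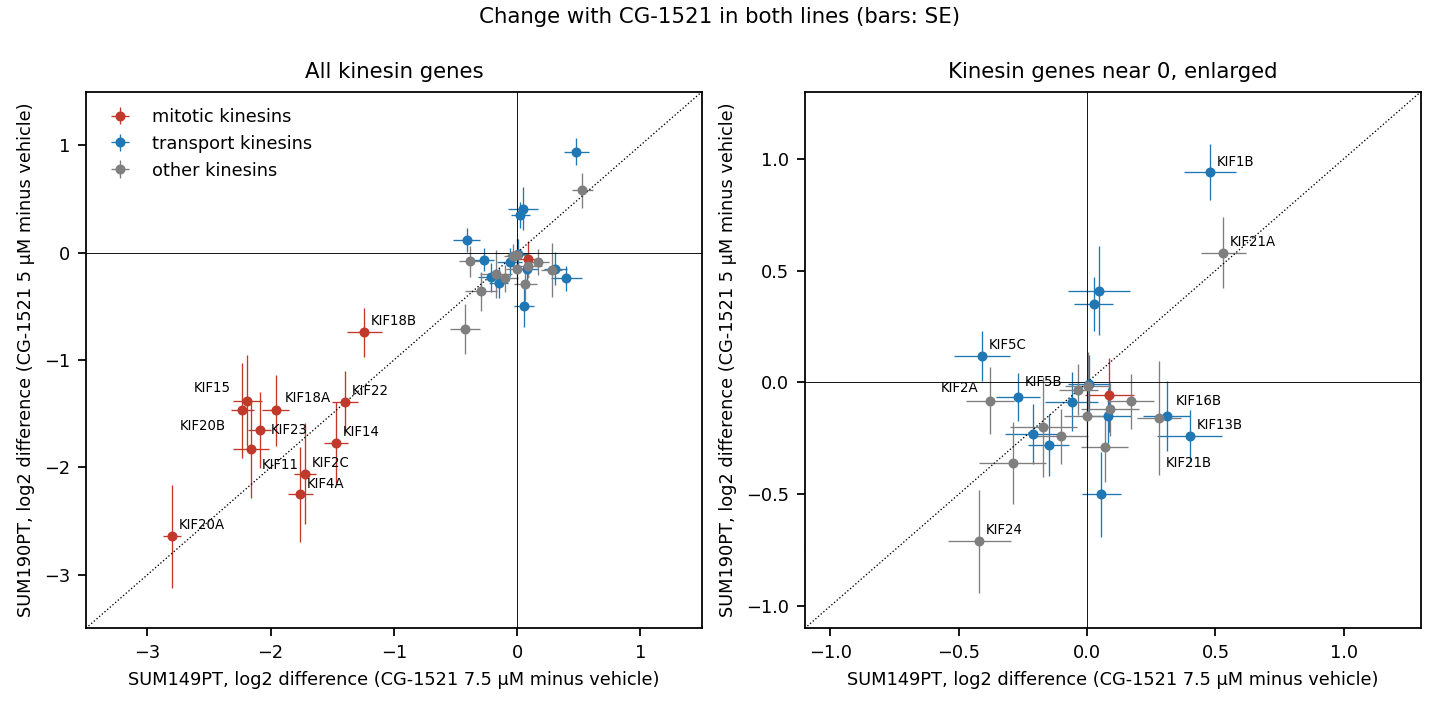
Log2 difference between CG-1521 and vehicle for each of the 38 kinesins, SUM149PT on the x axis and SUM190PT on the y axis, with bars of 1 standard error and a panel that enlarges the region near 0. The 11 mitotic kinesins lie in the lower left, from -2.80 to -1.24 in SUM149PT and from -2.64 to -0.74 in SUM190PT, and KIF1B and KIF21A lie in the upper right.

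With estradiol present in both groups, CG-1521 lowered the mitotic class as well. In SUM149PT 11 of 12 mitotic kinesins were lower with estradiol plus CG-1521 than with estradiol and none was higher, against 20.4% of all genes lower and 16.5% higher, with a median of -1.99. KIF20A measured 6.85, 6.91 and 6.79 with both agents and 9.88, 9.82 and 9.85 with estradiol, a difference of -3.00 (SE 0.075, adjusted p = 4.97e-13). In SUM190PT 10 of 12 were lower and none higher, against 13.2% of all genes lower and 12.5% higher, with a median of -2.08. KIF20A there measured 5.36, 6.51 and 6.08 with both agents and 9.38, 9.15 and 7.76 with estradiol, a difference of -2.78 (SE 0.48, adjusted p = 0.00173). The groups did not overlap in either line. KIF18B did not pass in SUM190PT, at -0.48 (adjusted p = 0.136), and its values of 5.86, 5.73 and 5.45 with both agents and 6.55, 6.29 and 5.65 with estradiol overlapped. Without the third estradiol and vehicle arrays it was -0.74 (adjusted p = 0.00467), 11 mitotic kinesins were lower and the median was -2.52. Set against vehicle, estradiol plus CG-1521 gave 11 lower mitotic kinesins in SUM149PT, where 20.9% of all genes were lower, and 10 in SUM190PT, where 6.77% were. None was higher in either line, where 16.2% of all genes in SUM149PT and 6.62% in SUM190PT were. The SUM190PT count was 11 without the third vehicle and estradiol arrays, where 8.92% of all genes were lower, 5 without the first array of both agents, 5 without the first vehicle array and 6 without the second. These comparisons share the vehicle arrays with CG-1521 against vehicle.

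KIF1B again rose in both lines with estradiol present, by 0.66 in SUM149PT (adjusted p = 8.19e-05) and by 0.78 in SUM190PT (adjusted p = 0.00112). Several transport kinesins differed between the lines, and they are named after their values were seen. KIF16B measured 6.39, 6.41 and 6.49 with both agents and 5.88, 6.08 and 6.02 with estradiol in SUM149PT, a difference of 0.43 (adjusted p = 0.00128). In SUM190PT it measured 7.03, 6.99 and 7.19 with both agents and 7.90, 7.68 and 7.74 with estradiol, a difference of -0.70 (adjusted p = 0.00668). With estradiol present the endosome motor thus rose in SUM149PT and fell in SUM190PT, with no overlap in either. The SUM190PT fall was from a mean of 7.77 with estradiol, against 7.32 with vehicle. Set against vehicle, the CG-1521 difference there was -0.15 without passing. In SUM190PT 0 transport kinesins passed as lower than vehicle with CG-1521 or with both agents, beside 8.26% and 6.77% of all genes. KIF13B measured 6.73, 6.76 and 6.82 with both agents and 5.93, 6.21 and 6.32 with estradiol in SUM149PT, a difference of 0.62 (adjusted p = 0.00113). In SUM190PT it measured 6.24, 6.10 and 6.30 with both agents and 6.54, 6.57 and 6.85 with estradiol, a difference of -0.44 (adjusted p = 0.0163). That second call was lost without the third estradiol and vehicle arrays (-0.35, adjusted p = 0.0549), and without the second array of both agents (-0.39, adjusted p = 0.0531). Over all alternatives it was lost in 3 of 15. KIF3A, a motor subunit of intraflagellar transport, measured 5.75, 6.23 and 5.60 with both agents and 6.92, 6.70 and 6.65 with estradiol in SUM190PT, a difference of -0.90 (adjusted p = 0.00553). In SUM149PT its values of 6.39, 6.18 and 6.27 with both agents and 6.24, 6.25 and 6.21 with estradiol overlapped. In SUM190PT the KIF3A mean was 6.76 with estradiol and 6.42 with vehicle. It was 5.92 with CG-1521 and 5.86 with both agents, and CG-1521 against vehicle gave -0.50 without passing.

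With estradiol present, 3 of 13 other kinesins were higher and 3 lower in SUM149PT, and 3 higher and 2 lower in SUM190PT. Over all genes 16.5% were higher and 20.4% lower in SUM149PT, and 12.5% higher and 13.2% lower in SUM190PT. KIF21A, KIF21B and KIF12, a kinesin of kidney and liver epithelium, rose by 0.58, 0.53 and 0.30 in SUM149PT. KIF24, KIF9 and KIF2A fell there, with differences of -0.48, -0.48 and -0.34, KIF9 being a kinesin of the axoneme of cilia and sperm. The arrays of KIF12 overlapped, and its call was lost without the second array of both agents (adjusted p = 0.0945), the third (0.0884), or the second (0.199) or the third (0.0894) estradiol array. That of KIF2A was lost without the second array of both agents (adjusted p = 0.0544). Over all alternatives the call of KIF12 was lost in 6 of 13 and that of KIF2A in 2 of 14. Those of KIF21B and KIF24 were lost in 1 of 14 and 1 of 13. In SUM190PT KIF7, a ciliary-tip regulator of Hedgehog signalling, rose by 0.49. KIF26A rose by 0.41 and KIF19, which sets the length of motile cilia, by 0.41. The means of KIF7, KIF26A and KIF19 were 5.63, 5.50 and 5.14 with estradiol, below the 5.96, 5.73 and 5.47 with vehicle. Set against vehicle, both agents gave 0 other kinesins higher in SUM190PT. KIF24 and KIF2A fell against estradiol, with differences of -0.93 and -0.45. The KIF2A mean was 8.38 with estradiol and 8.08 with vehicle. The calls of these 5 genes in SUM190PT depended on single arrays, with adjusted p from 0.0517 to 0.145 where lost. They were lost for KIF7, KIF19, KIF24 and KIF2A without the first estradiol array, for KIF7, KIF24, KIF26A and KIF2A without the second, and for KIF26A without the third. Without an array of both agents they were lost for KIF19, KIF26A and KIF2A (the first), KIF2A (the second) and KIF7 and KIF26A (the third). Over all alternatives KIF19 lost its call in 3 of 14, KIF26A in 5 of 14 and KIF2A in 5 of 15. KIF24 and KIF2A thus fell in both lines with estradiol present.

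Estradiol alone moved no kinesin past the threshold by limma in either line, and 0% of all genes were called in SUM149PT and 0.00543% in SUM190PT. At an unadjusted p under 0.05, 2 of 38 kinesins and 845 of 18417 genes differed in SUM149PT, and 6 kinesins and 4531 genes in SUM190PT. The median over mitotic kinesins was 0.024 in SUM149PT and 0.28 in SUM190PT, where it was 0.23 without the third arrays. In SUM190PT a fit over all 24 arrays and a fit with array weights each called 4 transport and other kinesins and 0 mitotic ones. The number of all genes called also rose steeply in both fits, as given in the last paragraph, so the 4 are not read as particular to kinesins. Without the first vehicle array 1 kinesin was called. Adding estradiol to CG-1521 also moved 0 kinesins by limma, with 4 of 38 kinesins in SUM149PT and 1 in SUM190PT at an unadjusted p under 0.05, beside 1156 and 889 of all genes.

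The lines also differed in vehicle. In vehicle, 9 of 12 mitotic kinesins were higher in SUM149PT than in SUM190PT and none was lower, with a median difference of 1.25, while 24.5% of all genes were higher and 22.1% lower. KIF18A differed most, by 2.35 (SE 0.265, adjusted p = 9.27e-08), with 8.61, 8.49 and 8.62 in SUM149PT and 6.78, 6.33 and 5.55 in SUM190PT. KIF4A, KIF2B and KIF22 did not pass, at 0.22, -0.13 and -0.30. The median was 0.82 without the third arrays, where 8 mitotic kinesins were higher and 1 was lower. KIF20A was no longer called without the third vehicle array of SUM190PT (0.68, adjusted p = 0.108), and KIF23 without that array (0.43, adjusted p = 0.231) or without the second vehicle array of SUM149PT (adjusted p = 0.0697) or the third (adjusted p = 0.095). Under CG-1521, 7 mitotic kinesins were higher in SUM149PT, with a median of 0.87, and none was lower, while 25% of all genes were higher and 22.6% lower. Without the third SUM190PT arrays 9 were higher. Over all alternatives the call of KIF18B under CG-1521 was lost in 6 of 12 and that of KIF20A in 3 of 12, and no other mitotic call there was lost.

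Among transport kinesins in vehicle, KIF5C, KIF3C, KIF5B, KIF13A and KIF17 were higher in SUM149PT than in SUM190PT, by 1.00, 0.74, 0.61, 0.46 and 0.34. KIF5C and KIF5B are heavy chains of conventional kinesin, KIF3C pairs with KIF3A, KIF13A moves recycling endosomes and KIF17 serves dendrites and cilia. KIF16B, KIF1B and KIF3B, the partner of KIF3A, were lower in SUM149PT, at -1.18, -1.0 and -0.81. KIF1B measured 7.34, 7.61 and 7.55 in SUM149PT vehicle arrays and 8.56, 8.63 and 8.30 in SUM190PT vehicle arrays. The call of KIF17 was lost without the third vehicle array of SUM149PT (0.28, adjusted p = 0.101). Of the other kinesins KIF21A was higher in SUM149PT by 0.40, with overlapping arrays, and KIF21B was lower, at -1.03. The KIF21A call was lost without the third arrays (0.27, adjusted p = 0.11), the third vehicle array of SUM149PT (adjusted p = 0.0575) or the second of SUM190PT (adjusted p = 0.0549). Over all alternatives it was lost in 4 of 12.

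The response to CG-1521, the SUM149PT difference minus that of SUM190PT, did not differ past the threshold for any of the 12 mitotic kinesins, with a median of -0.25 and a range from -0.81 to 0.48. A p above the threshold does not show that the responses were alike, and the median was 0.16, with 1 gene called, without the third arrays. Among the transport kinesins KIF13B was called higher at 0.63 (SE 0.179, adjusted p = 0.0143), and KIF5C and KIF1B lower, at -0.54 (SE 0.156, adjusted p = 0.0174) and -0.46 (SE 0.163, adjusted p = 0.0464). The call of KIF1B was lost without the third SUM190PT arrays (-0.37, adjusted p = 0.125) and without each of 8 arrays in turn, and that of KIF5C without the second CG-1521 array (-0.46, adjusted p = 0.0562) or the second vehicle array (-0.47, adjusted p = 0.0536) of SUM149PT. Over all genes the calls were 9.01% higher and 11.6% lower. With estradiol present, a contrast added after seeing the data, KIF16B differed by 1.14 (SE 0.183, adjusted p = 9.54e-05), KIF13B by 1.06 (SE 0.179, adjusted p = 0.000165), KIF3A by 0.94 (SE 0.211, adjusted p = 0.0024) and the mitotic kinesin KIF18B by -1.0 (SE 0.288, adjusted p = 0.0157). Over all genes they were then 10.6% higher and 9.86% lower. KIF18B was at -0.74 (adjusted p = 0.0504) without the third estradiol array of SUM190PT.

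Most genes that work with the mitotic kinesins also fell. Over all genes 14.4% were higher and 19.9% lower with CG-1521 than with vehicle in SUM149PT, and 8.32% higher and 8.26% lower in SUM190PT. Of 26 partners and regulators, 26 were lower in SUM149PT, with a median of -1.79, and 19 in SUM190PT, with a median of -1.43. In SUM149PT the kinetochore gene NDC80 differed by -2.27, the cytokinesis scaffold ANLN by -2.23 and the kinetochore gene CENPF by -2.11. In SUM190PT the spindle gene HMMR differed by -2.22, CENPF by -2.19 and the mitotic kinase PLK1 by -2.18. Without the third vehicle and estradiol arrays all 26 were lower in SUM190PT, with a median of -1.92. Of 10 other proliferation genes, 10 were lower in SUM149PT, with a median of -1.61, and 3 in SUM190PT, with a median of -1.23. These included MKI67, the Ki-67 antigen, at -2.16 in SUM149PT and -2.05 in SUM190PT, the cyclin gene CCNA2, at -2.03 and -1.59, and the topoisomerase gene TOP2A, at -1.84 in SUM149PT and -2.27 in SUM190PT. Without the third arrays 10 were lower in SUM190PT, with a median of -1.88. Of 22 transcription factors and regulators of the mitotic program, 3 were higher and 13 lower in SUM149PT, and 2 were higher and 1 lower in SUM190PT, where 2 were higher and 9 lower without the third arrays. MYBL2, a transcription factor of the cell cycle, was at -2.08 in SUM149PT and at -1.35 (adjusted p = 0.0591) in SUM190PT. FOXM1, an activator of G2 and M phase genes, fell, with -1.65 in SUM149PT and -1.85 in SUM190PT, and CDKN1A, which encodes the cyclin-dependent kinase inhibitor p21, rose by 1.45 in SUM149PT and 1.40 in SUM190PT. The part of these genes in the kinesin values was not tested.

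Genes that work beside the transport and other kinesins were counted in the same way, against the same shares of all genes, 14.4% higher and 19.9% lower in SUM149PT and 8.32% higher and 8.26% lower in SUM190PT. Of 16 kinesin light chains, adaptors and partners of transport, 6 were higher and 0 lower in SUM149PT, and 2 were higher and 0 lower in SUM190PT. In SUM149PT the light chain gene KLC4 rose most of these, by 0.70, and in SUM190PT it differed by -0.13 without passing. The light chain gene KLC1 rose in both lines, by 0.35 in SUM149PT and by 0.76 in SUM190PT, where the adaptor PLEKHM2 also rose, by 0.70. Of 20 dynein and dynactin genes, which form the motor that moves the other way along microtubules, 7 were higher and 5 lower in SUM149PT and 5 higher and 2 lower in SUM190PT, where 4 were higher and 1 lower without the third vehicle and estradiol arrays. The dynein heavy chain gene DYNC1H1 rose by 1.02 in SUM149PT and 0.54 in SUM190PT, and the dynactin subunit gene DCTN4 by 0.80 and 0.68. The dynein regulator NDE1, which acts in mitosis, fell, with -0.82 in SUM149PT and -0.87 in SUM190PT. Of 16 motile cilium genes, 0 were higher and 1, RSPH4A, was lower in SUM149PT, and 0 passed in SUM190PT. Of 19 intraflagellar transport and primary cilium genes, 6 were higher and 6 lower in SUM149PT, and 1 was higher and 4 lower in SUM190PT, where 1 was higher and 3 lower without the third arrays. BBS9 and BBS4, which encode subunits of the BBSome of the cilium, differed by 2.19 and 1.41 in SUM149PT, and in SUM190PT by -0.15, without passing, and by 0.99. IFT172, an intraflagellar transport gene, fell in both lines, with -0.49 in SUM149PT and -1.06 in SUM190PT, and IFT122 likewise, with -0.46 and -0.64. IFT27 was higher in SUM149PT, by 0.44, and lower in SUM190PT, at -0.58.

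Markers of breast epithelium and of other cell types also had members that moved with CG-1521. Over all genes 14.4% were higher and 19.9% lower in SUM149PT and 8.32% higher and 8.26% lower in SUM190PT. Of 7 measured basal epithelial markers, 3 were higher and 1 lower in each line, and in SUM190PT 4 were higher without the third vehicle and estradiol arrays. LAMB3, a laminin gene, rose by 1.75 in SUM149PT and 1.21 in SUM190PT, ANXA1 by 0.67 and 2.02. CDH3 fell in both lines, with -0.46 in SUM149PT and -0.85 in SUM190PT. Of 12 luminal markers 3 were higher and 1 lower in SUM149PT and 0 higher and 8 lower in SUM190PT, where 7 were lower without the third arrays. AGR2 rose by 3.88 in SUM149PT and differed by 0.18 in SUM190PT without passing, TFAP2B fell in SUM190PT, with -2.47, and GATA3 fell in both lines, with -0.92 in SUM149PT and -1.46 in SUM190PT. Of 10 fibroblast markers 3 were lower in SUM149PT, with FAP at -2.22, and 0 passed in SUM190PT. Of 8 measured leukocyte markers 1, CD14, was lower in SUM149PT, at -0.29, and 0 passed in SUM190PT. Of 13 neuron markers 1 was higher and 1 lower in SUM149PT, and 1 was higher in SUM190PT. The neuronal microtubule gene MAP2 rose by 1.81 in SUM149PT and by 2.44 in SUM190PT, and the neurofilament gene NEFL fell in SUM149PT, with -1.35, and was at -0.13 in SUM190PT without passing. The part of these markers in the kinesin values was not tested.

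Second probe sets were compared as means, with no test. For KIF22 the CG-1521 minus vehicle difference on the second probe set was -1.41 in SUM149PT and -1.38 in SUM190PT, and for KIF18B it was -1.31 and -0.80. The probe set shared by KIF4A and KIF4B gave -1.20 in SUM149PT and -1.42 in SUM190PT. The second probe set of KIF5A, the neuronal heavy chain, gave -0.009 in SUM149PT and 0.68 in SUM190PT. The KIF5A probe set used above gave 0.047 in SUM149PT and 0.41 in SUM190PT, and passed in neither. KIF27, an other kinesin, differed by -0.17 in SUM149PT and -0.20 in SUM190PT on its own probe set. On the 2 probe sets it shares with LOC389765 the differences had the other sign, at 0.24 and 0.31 in SUM149PT and at 0.22 and 0.12 in SUM190PT.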

How the data were processed

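The deposited values are log2 expression per probe set, from 1.7 to 14.5, which the authors computed by RMA with Affymetrix Expression Console, per the submitters' processing notes; no version is given. The sources used here do not say whether the 2 lines went through RMA in 1 batch. RNA was amplified and biotin labelled, per the labels' protocols. All 24 columns were used, 0 columns were unused and 0 values missing. Arrays carry no read depth, and precision rests on having 3 arrays per group. Of 33297 probe sets 19460 had 1 gene symbol, 1754 several and 12083 no entry. Those with 1 symbol gave 18417 genes, and of several probe sets the one brightest on average was used, as for 3 of the kinesins.

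Comparisons used limma 3.58.1 under R 4.3.3 (lmFit and eBayes, two-sided) on the log2 values, over the 12 arrays of a line within lines and over all 24 arrays between lines. P-values were adjusted by Benjamini-Hochberg over 18417 genes with a threshold of 0.05, and every adjusted p in the text is from these fits. Tables and plots were made in Python 3.11.15 with numpy 2.4.6, pandas 2.3.3 and matplotlib 3.10.9. The p-values measure the spread between arrays of independent experiments. In simulated data on the same 18417 genes, changes of log2 1 and log2 2 were recovered for CG-1521 against vehicle in most genes. The shares were 98% and 100% in SUM149PT and 84% and 99% in SUM190PT. The simulated noise was independent between genes and arrays, with the same spread in all groups of a line. It held no arrays like the third SUM190PT ones, so these shares do not give the recovery for mitotic kinesins in SUM190PT.

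The members, their classes and the 12 comparison lists (transport partners, dynein and dynactin, mitotic partners, proliferation genes, transcription factors, motile cilium, intraflagellar transport, and basal, luminal, fibroblast, leukocyte and neuron markers) were chosen with earlier results of these data known. Named in full were the 8 mitotic kinesins with the largest mean change among those that passed in both lines, and transport and other kinesins past the threshold with at least 0.5 log2 in a line. From a list at most 4 genes past the threshold in a line were named in it, the largest first, with their values in the other line. Motifs were searched on both strands of RefSeq promoter windows of GRCh38.p14, without KIF13B, KIF19, KIF21B, KIF26B, KIF27 and KIF5A.

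The labels do not say what a replicate number marks. Deviations of same-numbered arrays correlated above 0.1 for every number in SUM190PT only for estradiol against vehicle (0.443, 0.229 and 0.729) and for both agents against CG-1521 (0.518, 0.434 and 0.502). With the replicate as a block 0 kinesins passed in both of these comparisons, as without it, while all genes called for estradiol against vehicle numbered 519 with the block and 1 without. Alternatives were the block, fits over other arrays, quantile normalization, centring, a filter on dim genes, the mean of probe sets, array weights, each array left out and the third SUM190PT arrays left out. For the lists, leaving out the third arrays was added after seeing the data.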

Additional observations from a re-analysis of the deposited data

Results flagged for a closer look

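The response to CG-1521 differed between the lines, by the test of the difference, for 3 transport kinesins of the 38 kinesins, 1 higher and 2 lower, beside 9.01% of all genes higher and 11.6% lower. KIF13B differed by 0.63, having risen by 0.40 in SUM149PT. KIF5C differed by -0.54, and missed the threshold without the second CG-1521 array (adjusted p = 0.0562) or the second vehicle array (adjusted p = 0.0536) of SUM149PT. KIF1B differed by -0.46 and rose in both lines. Its call was lost in 11 of 18 alternatives, with adjusted p up to 0.152, among them without the third SUM190PT arrays (-0.37, adjusted p = 0.125) and without any 1 of the 3 CG-1521 arrays (adjusted p = 0.0771, 0.102 and 0.0526) or the second (0.117) or the third (0.0925) vehicle array of SUM149PT, and without the first (0.115) or the third (0.0732) CG-1521 array or the third vehicle array (0.133) of SUM190PT.

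With estradiol present the test of the difference was passed by 4 of the 38 kinesins, in a contrast added after seeing the data, 3 higher and 1 lower, beside 10.6% of all genes higher and 9.86% lower. KIF16B differed by 1.14 and KIF13B by 1.06, both risen in SUM149PT and fallen in SUM190PT. The fall of KIF13B in SUM190PT missed the threshold without the third estradiol and vehicle arrays (-0.35, adjusted p = 0.0549) and without the second array of both agents (-0.39, adjusted p = 0.0531). KIF3A differed by 0.94, with a fall in SUM190PT. The falls of these transport kinesins in SUM190PT were called against estradiol only. Against vehicle, 0 transport kinesins passed as lower there with CG-1521 or with both agents, beside 8.26% and 6.77% of all genes. Without passing, KIF3A differed by -0.50, KIF13B by -0.24 and KIF16B by -0.15 with CG-1521 against vehicle there. KIF18B differed by -1.0, and by -0.74 (adjusted p = 0.0504) without the third estradiol array of SUM190PT. Line, medium and dose cannot be told apart in these differences.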

How the results depend on the processing

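No direction of a called result turned under any alternative. Calls per gene and counts over all genes were tallied together. Of these, 2064 stayed, either keeping their call and direction or, for counts, staying close. A gene lost its call in 184, and 26 counts over all genes moved. Of the summaries 599 stayed close to the reported value and 46 moved. In SUM149PT the count of 11 mitotic kinesins lower with CG-1521 was 9 without the dimmest 50% of genes, where the median was -1.76, and 11 under every other alternative run. That filter removed KIF15 and KIF20B from the fit, so they did not lose a call. The lower counts without dim genes given below likewise reflect members that the filter removed.

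In SUM190PT with CG-1521 against vehicle, leaving out each array gave 5 to 11 mitotic kinesins and 1 to 4 transport and other kinesins (2 as reported). The transport and other count was 4 with the replicate block and 5 with all 24 arrays in one fit. The block left the mitotic count at 11 in that comparison. For estradiol plus CG-1521 against estradiol in SUM190PT, the transport and other count of 9 was 5 without dim genes and 5 to 10 with each array left out. For both agents against vehicle, that count in SUM149PT was 5 with all 24 arrays, against 9. In SUM190PT it was 2 as reported, 5 with all 24 arrays, 1 without dim genes, 4 with array weights and 1 to 2 with each array left out, and the mitotic count was 5 to 10. For estradiol against vehicle in SUM190PT the transport and other count was 4 with all 24 arrays, 4 with array weights and 0 to 1 with each array left out. The counts over all genes in the first 2 of these fits are given in the last paragraph.

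Between the lines under CG-1521, 14 transport and other kinesins were called in the main fit. Over all genes 25% were higher in SUM149PT in that fit and 22.6% lower. The kinesin count was 9 without dim genes and 9 to 12 with each array left out. Calls most often lost were those of KIF26B (7 of 11 alternatives), KIF3A (7 of 12), KIF17 (5 of 11) and KIF21A (5 of 12). For the difference in response, 1 mitotic kinesin was called without the third SUM190PT arrays and 0 to 1 with each array left out, and 1 to 4 transport and other kinesins. With estradiol present the mitotic count was 2 with array weights, 3 without the third arrays and 0 to 1 with each array left out, the mitotic median was 0.36 without the third arrays and -0.26 to 0.36 with each array left out, and the transport and other count was 6 with array weights, 6 without the third arrays and 3 to 5 with each array left out.

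The mean over arrays of a class median, set against the vehicle mean of each gene, moved as follows. For the transport class with CG-1521 it was 0.051 in SUM149PT and -0.042 in SUM190PT after quantile normalization. After centring it was -0.0044 in SUM190PT with CG-1521, and -0.0038 in SUM149PT and -0.0074 in SUM190PT with both agents. Without the third arrays it was -2.03 with CG-1521 and -2.05 with both agents for the mitotic class in SUM190PT, and -0.057 with CG-1521 for the transport class. These are not the medians of fitted differences given above.

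Counts over all genes moved more. For CG-1521 against vehicle in SUM190PT, 3053 became 5070 with all 24 arrays, 1567 without the first CG-1521 array and 1878 without the second vehicle array. For both agents against estradiol there, 4732 became 7203 with array weights and 2605 without the second estradiol array. For both agents against vehicle there, 2466 became 4242 with all 24 arrays. For estradiol against vehicle there, 1 became 2990 with all 24 arrays, 3079 with array weights and 519 with the block. The cause was not tested. With 3 arrays a group, small changes may be missed.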
